A study of Mus with 8 samples.

Results

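The smooth muscle contraction machinery was followed as 37 genes of actomyosin, its regulators, the adhesion plaque and the serum response factor control of muscle genes, taken by symbol from a table of 31269 gene symbols. All 37 were in the table and all passed the filter on low counts, which left 17629 genes. RNA had been sequenced from mouse uterus at pseudopregnancy day 6 in 8 libraries, of which 4 are labelled as myometrial PGR deficiency and 4 as control. PGR is the progesterone receptor and the myometrium is the muscle wall of the uterus. The labels give neither the allele nor the driver of the deficiency, nor strain, age or any treatment, and they do not say that each library came from its own animal, so the p-values speak to library-to-library spread, which may be technical. They place the tissue around implantation sites, although pseudopregnancy follows a sterile mating and has no embryos; the labels do not resolve this.

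Smooth muscle shortens when calcium-bound calmodulin activates myosin light chain kinase, which phosphorylates the myosin light chains and lets myosin pull on actin. Myosin phosphatase reverses this step, and its inhibition lets tone last at a given calcium level. The filaments end in dense bodies and adhesion plaques that carry force to the membrane, and serum response factor with its partner myocardin switches on many of the genes. In the uterus progesterone is known to keep the muscle quiet through pregnancy, and the contrast bears on expression in the uterus when the receptor is deficient in muscle.

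Library totals ran from 71377993 to 72364750 counts in the group labelled deficient and from 70296369 to 71303026 in controls. Levels are given as CPM (counts-per-million), which set a gene's count against the total of its library after TMM scaling, and 4 values of a group stand in the order of library numbers 1 to 4. They are not corrected for transcript length, so they rank libraries for one gene and not genes against each other. Differences are log2 of deficient over control with their SE from edgeR's quasi-likelihood test, and adjusted p-values are Benjamini-Hochberg values over all tested genes. Pgr itself measured 187, 184, 177 and 159.7 CPM in the libraries labelled deficient, against 131, 180.0, 144 and 171 CPM in controls (log2 difference 0.18 ± 0.11, adjusted p = 0.338). The counts cover all cell types, so they do not check a loss confined to muscle, and the groups are named here by their labels. Libraries 2 and 3 labelled deficient stood apart in the sum of epithelial markers, with sums over 10 genes of 3617 and 2639 CPM, against 1351 to 1557 CPM in controls and 1433 and 1487 CPM in libraries 1 and 4 labelled deficient. Not every marker was raised in them. Krt18 and Cldn4 lay within the range of controls, and Cldn3 was at 130 and 106 CPM, against 112 to 190 CPM in controls. Muscle was present throughout: 10 further smooth muscle markers summed to 1099 to 1223 CPM in the libraries labelled deficient and 1169 to 1467 CPM in controls, led by the intermediate filament gene Des, with only Lmod2 under 1 CPM in every library.

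No gene of the contraction machinery passed the edgeR test at an adjusted p under 0.05, the smallest among them being 0.0906, and across all tested genes the test called 0%. At an unadjusted p under 0.05 there were 14 of 37 members (37.8%) against 24.8% of all genes tested. By direction, 12 of these were lower in the libraries labelled deficient (32.4% of members, against 11.8% of all genes) and 2 were higher (5.41%, against 13% of all genes). Of the 37 differences 26 were negative (70.3%, against 48% of all genes), with a median of -0.14 where the median over all tested genes was 0.01. All members are read in the same 8 libraries, so these shares are a description and not a count of independent events. The share of members that were lower stayed above that of all genes in each fit with libraries left out, by little in some. It was 4 of 37 without control library 4, against 1486 of 17629 genes. Without libraries 2 and 3 labelled deficient together it was 4 of 37, against 1673 of 17626 genes. With both directions counted together, the excess over all genes did not hold in each of these fits. The count at an unadjusted p under 0.05 was 9 (24.3%, against 24.6%) without library 1 labelled deficient, 8 (21.6%, against 22.04%) without control library 2, 5 (13.5%, against 16.2%) without control library 4 and 6 (16.2%, against 18.4%) without libraries 2 and 3 labelled deficient together, so that in these 4 fits the members' share lay below that of all genes. The count was 9 (24.3%, against 19.0%) without library 2 labelled deficient and 12 (32.4%, against 20.8%) without library 3 labelled deficient. Without library 4 labelled deficient it was 13 (35.1%, against 30.7%). It was 17 (45.9%, against 18.2%) without control library 1 and 14 (37.8%, against 20.03%) without control library 3. In these remaining fits, each without 1 library, the members' share lay above that of all genes. DESeq2, an alternative test, called 5 members (13.5%, against 14.1% of all genes): Fhl1, Pdlim3, Hspb6 and Myocd as lower (4 members, against 6.7% of all genes) and Cnn2 as higher (1 member, against 7.41% of all genes). With 1 library left out, DESeq2 called Cnn2 in 3, Myocd in 2 and Hspb6 in 1 of 8 fits. Limma-voom called 0 members, with 15 at an unadjusted p under 0.05. In bulk tissue, fewer muscle cells and less RNA per muscle cell cannot be told apart.

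**Figure D1:**
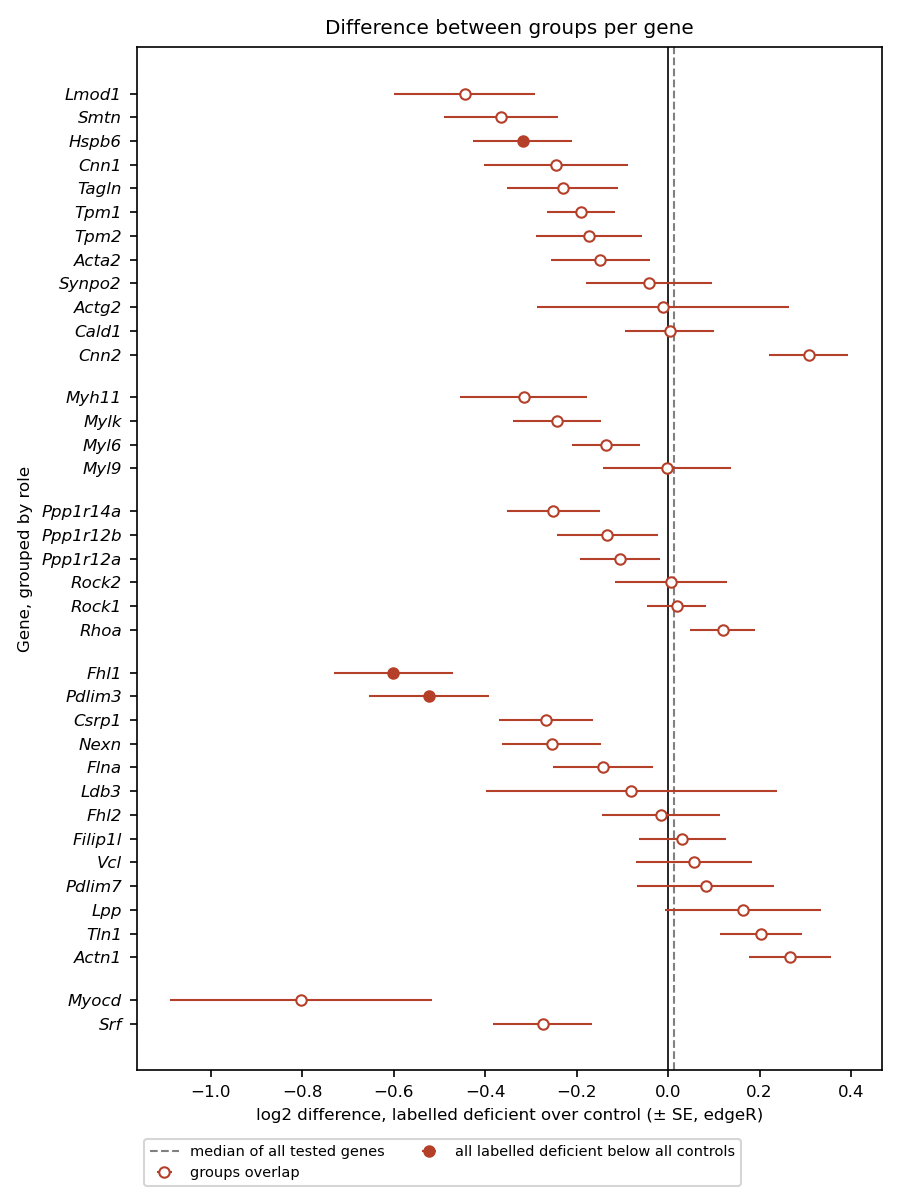
Log2 difference of the libraries labelled deficient over controls (horizontal axis, with SE, edgeR, 4 libraries per group) for the 37 genes, grouped by role from thin filament at the top to SRF control at the bottom. Filled points mark the 3 genes whose libraries labelled deficient all lie below all controls (Hspb6, Fhl1 and Pdlim3), and the dashed line marks the median of all tested genes at 0.01.

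Control libraries differed among themselves in an order that most members shared. In 27 of the 37 genes, controls 2 and 4 both lay above controls 1 and 3, an order found in 19.7% of all tested genes. Control library 4 was the highest of all 8 libraries for 21 members, against 14.6% of all genes, and control library 1 was the lowest for 10 (27.0%, against 13.5% of all genes). Libraries 1 and 2 labelled deficient were each the lowest for 8 members (21.6%, against 12.3% and 28.1% of all genes). The median deviation of the members from their means, on the log2 scale, was 0.18 and 0.23 in controls 2 and 4 and -0.11 and -0.02 in controls 1 and 3, with the libraries labelled deficient between -0.13 and -0.01. By this median the libraries labelled deficient lay near controls 1 and 3. Summed over the 37 genes, the machinery took 1.35%, 1.30%, 1.41% and 1.40% of all counts in the libraries labelled deficient, against 1.33%, 1.66%, 1.48% and 1.71% in controls, and the groups overlapped. The SD of the log2 level was larger in controls than in the libraries labelled deficient for 22 members (59.5%), against 28.5% of all genes.

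**Figure D2:**
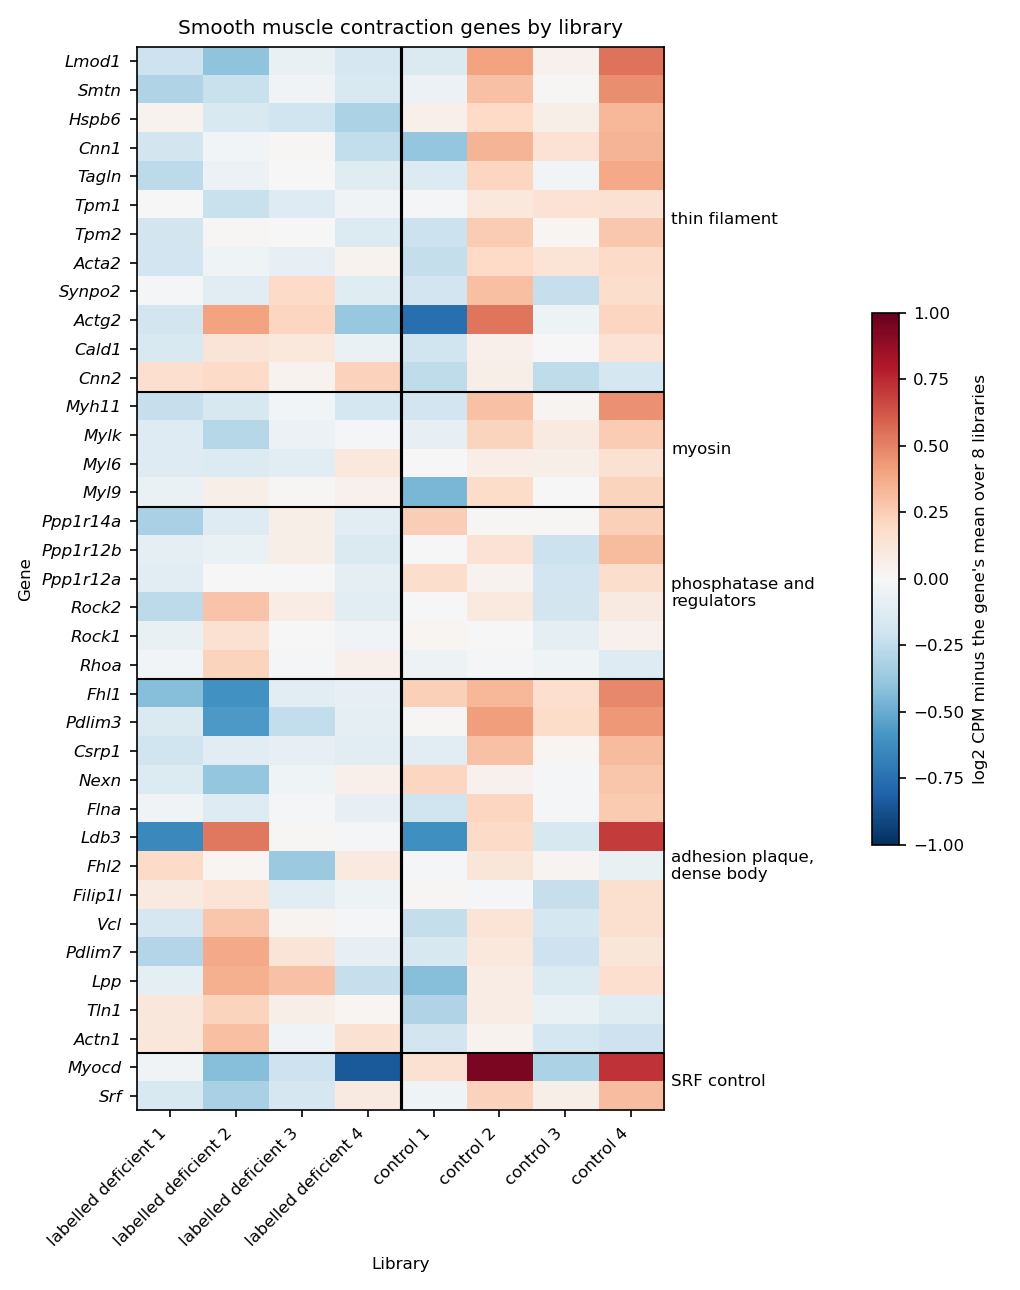
Heat map of the 37 genes (rows, grouped by role) in the 8 libraries (columns, the 4 labelled deficient on the left of the line and the 4 controls on the right). Colour is log2 CPM minus the gene's mean over the 8 libraries, and controls 2 and 4 are the warm columns, where both lie above controls 1 and 3 in 27 genes.

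The thin filament genes encode actin and the proteins bound along it. Of 12 genes, 10 had negative differences and 2 positive, with a median of -0.18; 4 were lower and 1 higher at an unadjusted p under 0.05, and 0 passed the adjusted test. Acta2, smooth muscle alpha actin on chromosome 19 from 34240336 to 34255585 (GRCm38.p6), had the highest counts among them. It measured 817, 908, 884 and 955 CPM in the libraries labelled deficient, against 790.4, 1069, 1025 and 1065 CPM in controls. All the libraries labelled deficient lay below controls 2 to 4, but control 1 was the lowest of the 8, and the difference of -0.15 ± 0.11 did not pass (adjusted p = 0.418). Without control 1 it is one of 13 members with no overlap between groups (35.1%, against 19.5% of all genes). Actg2, the gamma actin of visceral muscle, ranged from 186 to 318 CPM in the libraries labelled deficient and from 143 to 348 CPM in controls, a 2.44-fold spread among the controls alone. The actins are close copies of each other and how reads shared between them were counted is not given in the sources used here, so the split between Acta2 and Actg2 is uncertain.

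Hspb6, the small heat shock protein Hsp20, which binds the contractile apparatus and is linked to relaxation when phosphorylated, lies on chromosome 7 from 30552535 to 30555443. Its levels were 18.7, 16.4, 15.9 and 14.6 CPM in the libraries labelled deficient, against 18.9, 21.0, 19.0 and 22.986 CPM in controls. Library 1 labelled deficient and control 1 were almost level, yet the groups did not overlap, and the difference was -0.32 ± 0.11 (adjusted p = 0.137 in edgeR, 0.0454 in DESeq2). The gene overlaps Lin37 and a predicted gene in the annotation, and without strand information reads of overlapping genes cannot be told apart. Cnn2, the calponin also found outside muscle, went the other way, at 199.6, 203, 182 and 209 CPM in the libraries labelled deficient, against 149, 185, 149 and 157 CPM in controls. Control 2 reached into the range of the libraries labelled deficient, and the difference was 0.31 ± 0.09 (adjusted p = 0.106 in edgeR, 0.019 in DESeq2). Cnn1, the calponin of differentiated smooth muscle, averaged 278 ± 23.4 CPM in the libraries labelled deficient and 329 ± 70.5 CPM in controls (SD, n = 4 each), with a difference of -0.24 ± 0.16.

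Smoothelin (Smtn) and leiomodin 1 (Lmod1), both tied to contractile smooth muscle, followed the order of the controls just described. Smtn measured 415, 438, 500.0 and 461 CPM in the libraries labelled deficient, against 490.4, 625, 516 and 705 CPM in controls. For Lmod1, an actin filament nucleator, the values were 93.2, 81.4, 102 and 95.7 CPM in the libraries labelled deficient, against 97.2, 142, 111 and 157 CPM in controls. In both genes controls 2 and 4 were the highest of the 8 libraries, control 1 alone lay within the range of the libraries labelled deficient, and the differences of -0.37 ± 0.13 and -0.45 ± 0.15 did not pass (adjusted p = 0.138 and 0.14 in edgeR). The remaining thin filament genes overlapped between groups as well. Transgelin (Tagln), an actin-binding protein whose gene overlaps Pcsk7, had a difference of -0.23 ± 0.12, and the tropomyosins Tpm1 and Tpm2, which lie along actin, had -0.19 ± 0.07 and -0.17 ± 0.12. Caldesmon (Cald1), which restrains actomyosin, was at 0.00 ± 0.10 and synaptopodin 2 (Synpo2), a filament-bundling protein, at -0.04 ± 0.14. The sign of the Cald1 and Actg2 differences changed with the scaling or the tool.

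Myosin and its kinase gave 4 negative differences of 4, with a median of -0.19, and 1 was lower at an unadjusted p under 0.05. Myh11, the smooth muscle myosin heavy chain on chromosome 16 from 14194527 to 14292188, measured 1410.4, 1479, 1622 and 1459 CPM in the libraries labelled deficient, against 1447, 2024, 1687 and 2272 CPM in controls. The libraries labelled deficient kept within a 1.15-fold range, control 1 lay inside it, and controls 2 and 4 lay well above. The difference was -0.32 ± 0.14 (adjusted p = 0.204). Mylk, the gene of myosin light chain kinase on chromosome 16 from 34745199 to 35002436, measured 937, 841, 982 and 1014 CPM in the libraries labelled deficient, against 969, 1191, 1089 and 1219.7 CPM in controls. Only control 1 lay within the range of the libraries labelled deficient, and the difference of -0.24 ± 0.10 did not pass (adjusted p = 0.171). The light chains overlapped between groups: Myl9, the regulatory chain that the kinase phosphorylates, was at -0.00 ± 0.14, with a sign that changed with the scaling, and Myl6, the essential chain found in muscle and other cells, was at -0.14 ± 0.07.

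Myosin phosphatase and its regulators came next. Of 6 genes, 3 differences were negative and 3 positive, with a median of -0.05, and 1 was lower at an unadjusted p under 0.05. That gene was Ppp1r14a, which encodes CPI-17, a phosphorylation-dependent inhibitor of myosin phosphatase, on chromosome 7 from 29289320 to 29293390. It measured 29.6, 33.9, 38.7 and 34.3 CPM in the libraries labelled deficient, against 43.9, 37.4, 37.4 and 43.8 CPM in controls. Library 3 labelled deficient passed controls 2 and 3, and the difference was -0.25 ± 0.10 (adjusted p = 0.176). Rhoa, a small GTPase of the actin cytoskeleton, on chromosome 9 from 108306160 to 108337943, measured 309.8, 368, 312 and 328 CPM in the libraries labelled deficient, against 306, 312, 307 and 289 CPM in controls. Apart from library 2 labelled deficient, the 8 values lay close together, and the difference was 0.12 ± 0.07 (adjusted p = 0.32). Rock1 and Rock2, protein kinases that phosphorylate myosin phosphatase, had differences of 0.02 ± 0.07 and 0.01 ± 0.12, whose signs changed with the scaling. The targeting subunits of myosin phosphatase, Ppp1r12a and Ppp1r12b, were at -0.11 ± 0.09 and -0.13 ± 0.11. These 4 genes overlapped between groups.

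Adhesion plaque and dense body genes went both ways. Of 13 genes, 7 differences were negative and 6 positive, with a median of -0.02; 4 were lower and 1 higher at an unadjusted p under 0.05. Fhl1, a LIM-domain protein of the muscle cytoskeleton, whose gene overlaps a predicted gene, on chromosome X from 56731209 to 56793346, measured 154, 136, 192 and 196 CPM in the libraries labelled deficient, against 245, 261, 233 and 288 CPM in controls. The highest library labelled deficient was below the lowest control, and library 2 labelled deficient was the lowest of all. The difference of -0.60 ± 0.13, a ratio of 0.659, did not pass in edgeR (adjusted p = 0.0906) and passed in DESeq2 (adjusted p = 0.00155). DESeq2 called Fhl1 in each of the 8 fits with 1 library left out, where the edgeR difference ran from -0.68 to -0.50 and its adjusted p from 0.0643 to 0.252.

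Pdlim3, a PDZ and LIM protein that binds alpha-actinin, on chromosome 8 from 45885487 to 45919635, also had groups apart. It measured 174, 129, 163 and 181 CPM in the libraries labelled deficient, against 194, 258, 218 and 259 CPM in controls. Library 2 labelled deficient was again the lowest, library 4 labelled deficient came nearest to control 1, and the groups did not overlap. The difference was -0.52 ± 0.13, a ratio of 0.696 (adjusted p = 0.0988 in edgeR, 0.00835 in DESeq2), and DESeq2 kept the call in 7 of 8 fits with 1 library left out, losing it without control 4 and also without libraries 2 and 3 labelled deficient together. With Hspb6, these were the 3 members whose libraries labelled deficient all lay below all controls, 8.11% of members against 8.66% of all genes, a share near the background. Counting both directions, the members apart were 5 (13.5%, against 21.2%) without library 1 labelled deficient, 9 (24.3%, against 20.8%) without library 3 and 6 (16.2%, against 27.7%) without library 4. They were 13 (35.1%, against 19.5%) without control 1, 7 (18.9%, against 23.3%) without control 2 and 5 (13.5%, against 21.0%) without control 3, so the share lay above that of all genes without library 3 labelled deficient and without control 1, and below it in the other 4 fits. There were 0 members whose libraries labelled deficient all lay above, against 7.61% of all genes.

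Flna, the actin cross-linker filamin A on chromosome X from 74223461 to 74249854, had the highest counts of the plaque genes and had groups that overlapped. Its values were 2219, 2078, 2251 and 2147 CPM in the libraries labelled deficient, against 1976, 2641, 2249 and 2725 CPM in controls, with a difference of -0.14 ± 0.11 (adjusted p = 0.441). The libraries labelled deficient kept within a 1.08-fold range inside the wider control range. Csrp1 and Nexn, an actin-binding LIM protein and the filament protein nexilin, were lower at an unadjusted p under 0.05, at -0.27 ± 0.10 and -0.25 ± 0.11. Actn1, the alpha-actinin that cross-links actin in many cell types, was higher at that level, with 413, 469, 372 and 423 CPM in the libraries labelled deficient, against 336, 390.5, 337 and 330.1 CPM in controls and a difference of 0.27 ± 0.09. Only control 2 overlapped the libraries labelled deficient for Actn1. Talin 1 (Tln1), which ties integrins to actin, was at 0.20 ± 0.09 and vinculin (Vcl), which strengthens that tie, at 0.06 ± 0.13. Lpp and Filip1l, a LIM protein and a filamin-interacting protein, were at 0.16 ± 0.17 and 0.03 ± 0.09, Fhl2 at -0.02 ± 0.13 and Pdlim7 at 0.08 ± 0.15. Ldb3, a PDZ and LIM protein best known from the Z-disc of striated muscle, was the least abundant member by count, at 7.95, 17.8, 12.5 and 12.3 CPM in the libraries labelled deficient, against 8.13, 14.2, 11.1 and 20.1 CPM in controls. Its spread within each group was over any difference between them (-0.08 ± 0.32).

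The transcriptional control pair were both lower at an unadjusted p under 0.05, and neither passed the adjusted test. Myocd, myocardin, the coactivator of serum response factor in smooth and heart muscle, on chromosome 11 from 65173608 to 65269989, measured 20.0011, 15.2, 17.7 and 11.5 CPM in the libraries labelled deficient, against 22.8, 39.3, 16.5 and 33.8 CPM in controls. Control 3 lay inside the range of the libraries labelled deficient, and controls 2 and 4 were the highest of the 8. Its difference of -0.80 ± 0.29, a ratio of 0.573, was the most negative among members (adjusted p = 0.146 in edgeR, 0.0488 in DESeq2). With 1 library left out, the difference ran from -0.9965 to -0.60. Srf, serum response factor itself, on chromosome 17 from 46546838 to 46558267, measured 127, 113, 126 and 150.2 CPM in the libraries labelled deficient, against 137, 165, 148 and 175 CPM in controls. Library 4 labelled deficient overlapped controls 1 and 3, and the difference was -0.27 ± 0.11 (adjusted p = 0.17).

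**Figure D3:**
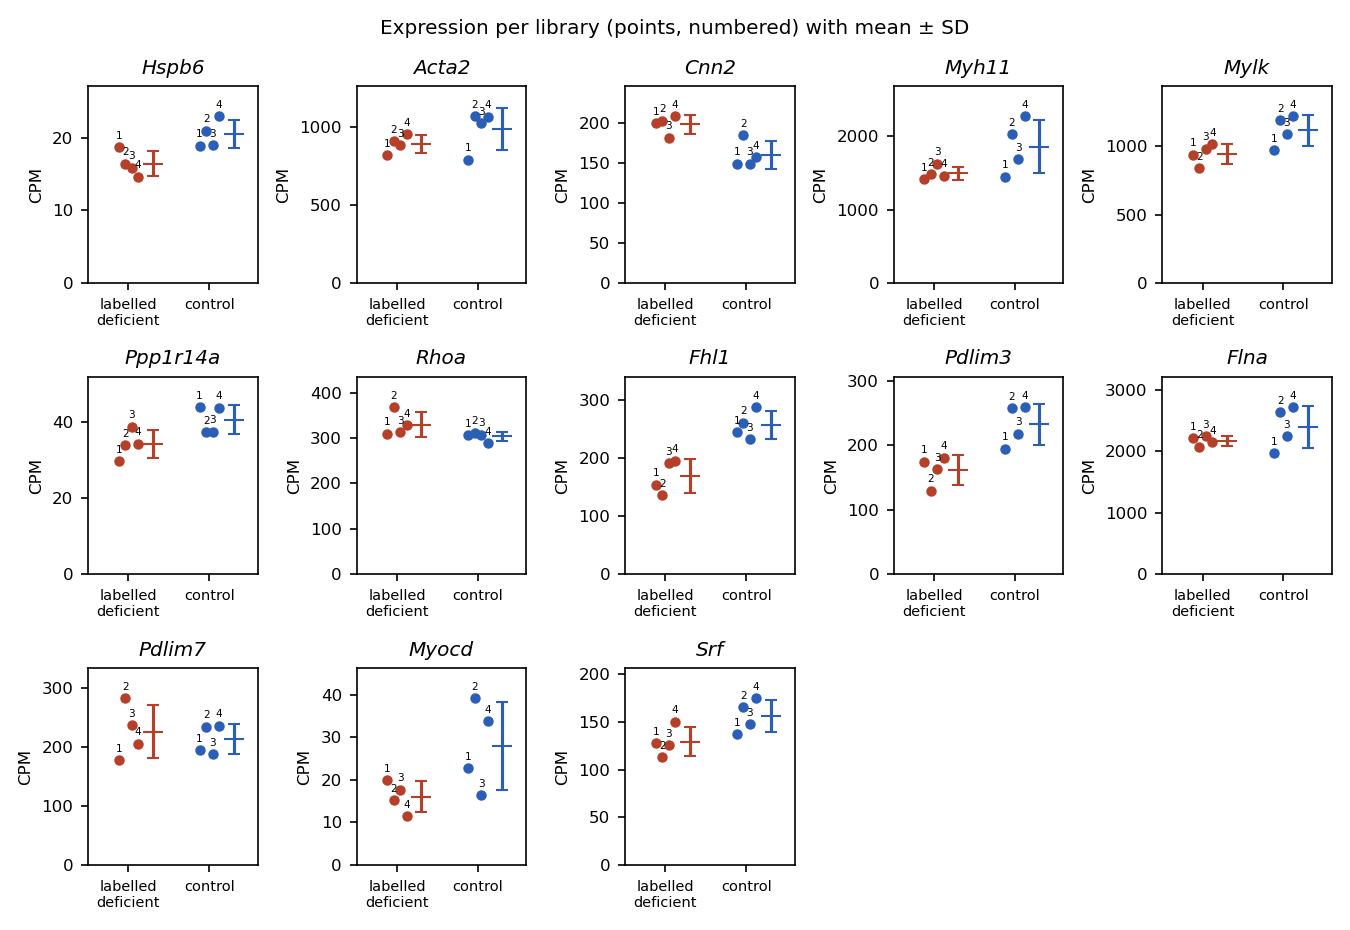
CPM in each library (points, numbered 1 to 4 within a group, libraries labelled deficient on the left and controls on the right of each panel, with mean and SD beside them) for 13 genes named by rule, on axes that start at 0. Hspb6, Fhl1 and Pdlim3 have no overlap between groups, while in Acta2 and Myh11 control 1 lies with the libraries labelled deficient.

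Ratios between related genes within a library cancel scaling and transcript length when groups are compared. For 9 pairs a two-sided exact permutation test over libraries was run, whose smallest possible p is 0.0286 with 4 against 4, and p-values were adjusted over the 9 pairs. One pair separated the groups. Pdlim7 over Pdlim3, PDZ and LIM relatives, was 1.02, 2.18, 1.46 and 1.14 in the libraries labelled deficient, against 1.0004, 0.909, 0.861 and 0.911 in controls. All 4 libraries labelled deficient lay above all controls, library 1 only just, and the mean log2 ratio was 0.59 higher (exact permutation p = 0.0286, adjusted p = 0.257). Without library 2 labelled deficient it was 0.37 higher. With any 1 library left out the exact permutation p was 0.0571, the smallest that 3 against 4 allows. Groups apart in 4 against 4 stay apart with fewer libraries, so this p was fixed beforehand and is no further test. Pdlim7 alone measured 178, 283, 237 and 206 CPM in the libraries labelled deficient, against 194, 234, 188 and 236 CPM in controls, so it overlapped fully. Cnn2 over Cnn1 was 0.757, 0.691, 0.602 and 0.825 in the libraries labelled deficient, against 0.651, 0.488, 0.450 and 0.415 in controls, with only control 1 above a library labelled deficient, a mean log2 ratio 0.53 higher (exact permutation p = 0.0571, adjusted p = 0.257). Fhl2 over Fhl1 was 0.58 higher on the log2 scale with overlap (exact permutation p = 0.114). Of the other 6 pairs, Actg2 over Acta2, Tpm2 over Tpm1, Myl6 over Myl9, Ppp1r12b over Ppp1r12a and Rock2 over Rock1 differed by -0.16 to 0.17, and Myocd over Srf by -0.48 (exact permutation p of 0.229 or above), all overlapping. Adjusted over 9 pairs, 0 passed.

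**Figure D4:**
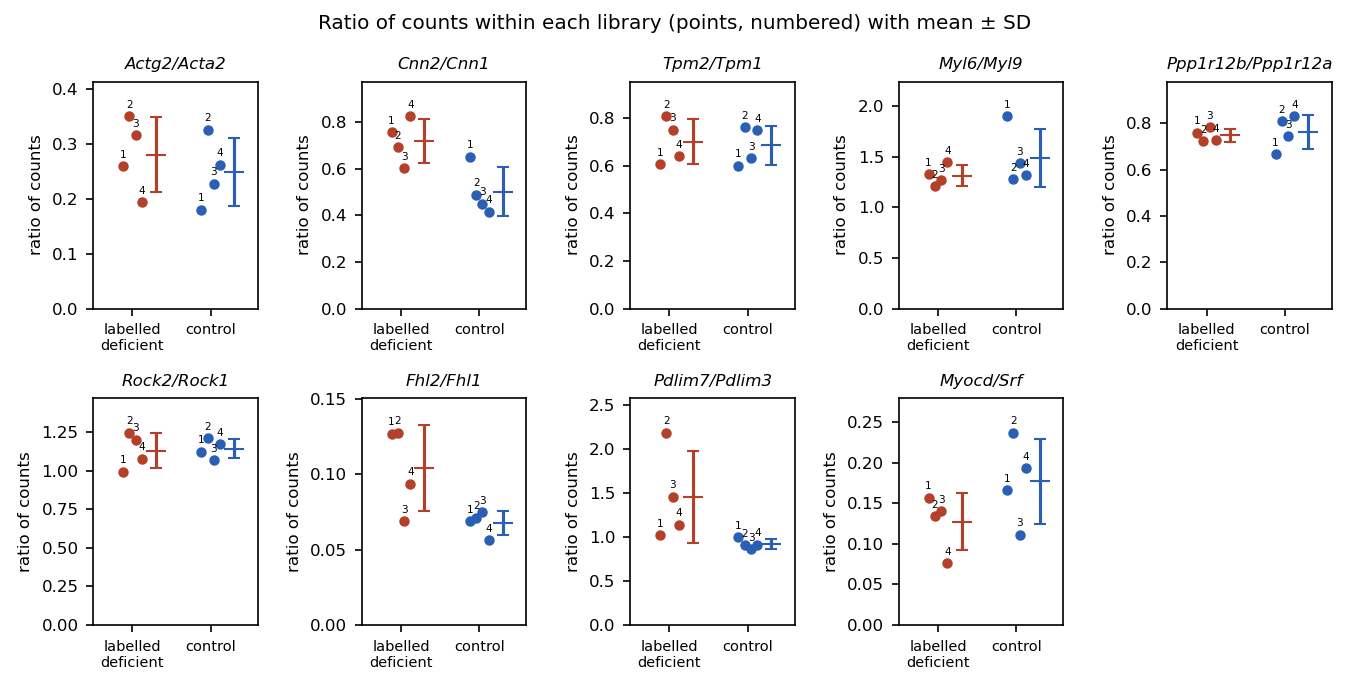
Ratio of counts of 2 related genes within each library (vertical axis from 0, no unit), with points numbered 1 to 4 within a group, libraries labelled deficient on the left and controls on the right, and mean with SD beside them. Pdlim7/Pdlim3 is the pair with no overlap, and in Cnn2/Cnn1 control 1 reaches the libraries labelled deficient.

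Set against Myh11 of the same library, a denominator chosen after the values were seen, several members stood higher in every library labelled deficient. Such a ratio of counts above all controls was found for 9 of 36 members (25%, against 15% of all genes), and below all controls for 0 (against 0.93% of all genes). The 9 were Cnn2, Synpo2, Myl9, Tpm2, Cald1, Flna, Vcl, Tln1 and Lpp. Fhl1 was 10.9, 9.20, 11.8 and 13.4% of the Myh11 level in the libraries labelled deficient and 16.9, 12.9, 13.8 and 12.7% in controls, not corrected for length, and overlapped by this measure, as did Pdlim3 and Hspb6.

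Other genes of the pathway, from lists that share no gene with the 37, were read the same way. Non-muscle actomyosin, the actins, myosins and tropomyosins of all cells, had 13 of 13 differences positive with a median of 0.26, 6 of them at an unadjusted p under 0.05 (46.2%, against 13% of all genes in that direction), and 0 past the adjusted test. The cytoplasmic actin Actg1 measured 416, 455, 392 and 441 CPM in the libraries labelled deficient, against 374, 355, 361 and 329 CPM in controls and did not overlap between groups (0.26 ± 0.07, adjusted p = 0.102 in edgeR), with the same doubt over reads shared among actins. Tropomyosins Tpm4 and Tpm3 were at 0.26 ± 0.07 and 0.43 ± 0.13, also without overlap. All 13 remained positive under each scaling, and 12 of 13 were positive without libraries 2 and 3 labelled deficient, with a median of 0.22. Among 20 further adhesion plaque genes 14 differences were negative, with a median of -0.14 (70% negative, against 48% of all genes). At an unadjusted p under 0.05, 7 were lower (35%, against 11.8% of all genes) and 1 was higher (5%, against 13%), and DESeq2 called 6, each lower (30%, against 6.7%). Lims2 (PINCH2), a partner of integrin-linked kinase, measured 44.6, 41.1, 58.4 and 49.4 CPM in the libraries labelled deficient, against 69.9, 73.6, 66.2 and 74.3 CPM in controls, without overlap (-0.55 ± 0.11, adjusted p = 0.0906). Itga1, an integrin subunit for collagen, and Tln2, the talin of muscle and brain, were at -0.68 ± 0.19 and -0.74 ± 0.21, likewise apart.

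The next lists held shares of genes near those of all genes at an unadjusted p under 0.05. Of 13 SRF cofactors and related factors 1 was lower (7.69%, against 11.8% of all genes), Foxo4, a forkhead factor known to bind myocardin (-0.39 ± 0.13). Another 2 were higher (15.4%, against 13%), Elk3, an ETS factor that partners SRF, and Klf4, which represses smooth muscle genes in vascular cells (0.42 ± 0.16 and 0.72 ± 0.31). Both overlapped between groups and were highest in libraries 2 and 3 labelled deficient (163 and 141 CPM for Elk3, 337 and 263 CPM for Klf4). Without library 2 or without library 3 labelled deficient, 0 genes of this list were higher at that level. Of 13 tested LIM and PDZ-LIM relatives 2 were lower (15.4%), Ablim3 (-0.60 ± 0.14) and Tes (-0.20 ± 0.08), both actin-associated LIM proteins, and 1 was higher (7.69%), Pdlim1 (0.45 ± 0.13). In neither list did a gene pass the adjusted test in edgeR.

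Markers of other cell types also differed between libraries, and their part in them was not tested. Striated muscle markers, 12 genes led by Acta1, summed to 59.9 to 81.8 CPM in the libraries labelled deficient and 87.2 to 132 CPM in controls, without overlap. Acta1 itself did overlap, at 40.9 to 59.6 CPM in the libraries labelled deficient and 58.8 to 93.3 CPM in controls. It carries the same doubt over reads shared among actins. Actc1, Myh1, Myh2, Myh7 and Tnnc2 were under 1 CPM in every library, and 8 of 9 tested markers had negative differences. Pericyte and vascular mural markers summed to 1005, 659, 784 and 1010.2 CPM in the libraries labelled deficient and 981 to 1104 CPM in controls. Mesothelial markers, 5 genes of the outer lining led by Wt1, summed to 148 to 243 CPM in the libraries labelled deficient and 297 to 378 CPM in controls, also without overlap, with 5 of 5 differences negative. Leukocyte markers had 9 of 9 positive differences and summed to 1030.3 to 1323 CPM in the libraries labelled deficient and 835 to 1068 CPM in controls. Epithelial markers were positive in 7 of 10, stromal markers in 3 of 8 and endothelial markers in 1 of 7, with endothelial sums of 701 to 1285 CPM in the libraries labelled deficient and 1027 to 1251 CPM in controls, and stromal sums of 7320.2 to 8850.1 CPM in the libraries labelled deficient and 5645 to 7351 CPM in controls. Among further smooth muscle markers Synm, an intermediate filament gene, and Pgm5, a plaque protein, were at -0.73 ± 0.16 and -0.38 ± 0.10, both without overlap. Des was at -0.19 ± 0.13, with overlap. Of the 9 tested, 2 had an unadjusted p under 0.05 in edgeR (22.2%, against 24.8% of all genes). Both were lower, as were 11.8% of all genes at that level, and 0 passed the adjusted test. The DESeq2 calls numbered 2 (22.2%, against 14.1% of all genes). Without libraries 2 and 3 labelled deficient, in which the sum of epithelial markers was high, Fhl1 was at -0.55, Pdlim3 at -0.38, Cnn2 at 0.35 and Myocd at -0.83.

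**Figure D5:**
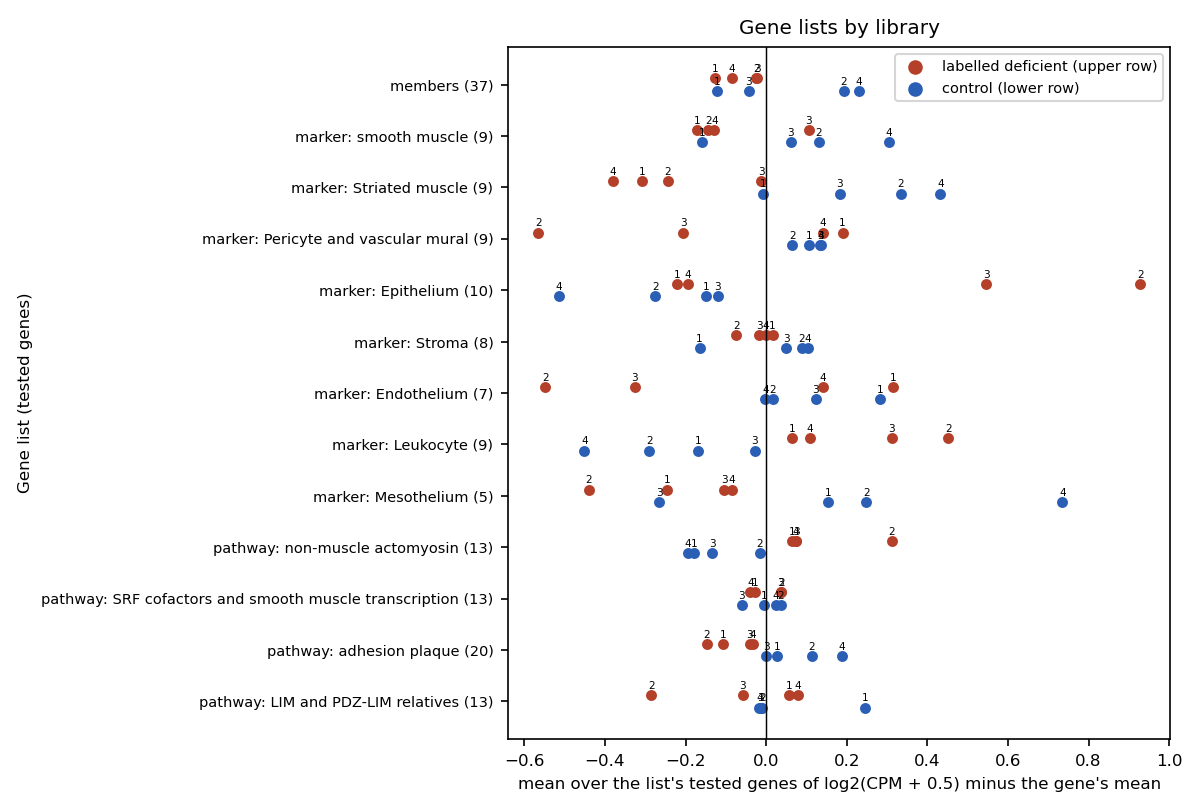
Mean over a list's tested genes of log2(CPM + 0.5) minus each gene's mean over the 8 libraries (horizontal axis), for the 37 contraction genes and 12 further lists (vertical axis, with the number of tested genes). The upper row of each list holds the libraries labelled deficient and the lower row the controls, numbered 1 to 4; controls 2 and 4 lead the contraction genes, and libraries 2 and 3 labelled deficient lead the epithelial list.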

How the data were processed

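RNA from uterine tissue at pseudopregnancy day 6 was sequenced in 8 libraries, 4 per group, with groups taken from the labels. The deposited values are whole-number counts per gene symbol. The submitters' processing notes name HISAT2 2.2.1, HTSeq 0.10.0 and the build mm10; the sources used here state neither the strand setting nor how reads with several alignments were treated, which bears on overlapping genes and on the actins.

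From these counts, genes were filtered with filterByExpr, scaled by TMM and tested with edgeR 4.0.16 (quasi-likelihood, group as the only term, R 4.3.3), with Benjamini-Hochberg adjustment over 17629 genes and a threshold of 0.05. Ratios of 9 gene pairs were compared with a two-sided exact permutation test (SciPy 1.17.1). Alternatives were other scalings and filters, DESeq2 1.42.0, limma-voom 3.58.1, a replicate block, and leaving out libraries. The pipeline was tested on simulated data. Coordinates are those of RefSeq on GRCm38.p6, in which 37 of 37 members matched. Values in every library are given, per role, for the gene with the highest mean CPM and the 2 with the smallest p, for genes whose groups do not overlap, and for both genes of a pair whose ratio separates the groups; Smtn, Lmod1, Actn1 and Ldb3 were added after their values were seen. Up to 3 genes of each further list are named by p. One further list is not reported here. The members and lists were chosen with earlier results of these data known. No library looked like a second deposit of another, as their counts differed beyond sampling noise, which does not show that they came from separate animals.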

Additional observations from a re-analysis of the deposited data

Results flagged for a closer look

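Of 92 groups of 4 values checked, 3 held a library whose gap to its nearest neighbour, divided by the range of the group, passed Dixon's 95% critical value for groups of that size; chance gives about 1 in 20. Acta2 in control library 1 lay below the other controls (0.841 of the range), Myl6 in library 4 labelled deficient lay above the others of its group (0.915), and Actn1 in control library 2 lay above the other controls (0.883).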

How the results depend on the processing

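Of 703 member results under the alternatives, 645 kept their direction and their side of the threshold, 5 newly passed it (the DESeq2 calls) and 53 changed sign, in 12 genes whose main differences ran from -0.08 (Ldb3) to 0.16 (Lpp); the cause was not tested. The edgeR count of 0 genes became 2488 with DESeq2, 2 with limma-voom, 3 with legacy=FALSE (chosen after seeing the data) and 0 to 2 with 1 library left out. Deviations of same-numbered libraries had correlations of 0.22, 0.29, -0.00 and -0.08, and those of differently numbered libraries ran from -0.31 to 0.35. So few values cannot decide whether the numbers pair the libraries. With the replicate block 23 genes and 0 members were called, and Actg2 stood at 0.030, Myl9 at 0.021 and Rock2 at -0.0040. Members at an unadjusted p under 0.05 numbered 5 to 17 with 1 library left out and 6 without libraries 2 and 3 labelled deficient. Members with groups apart numbered 5 under upper quartile scaling (13.5%, against 16.1% of all genes), 6 under library totals (16.2%, against 15.9%), 8 without libraries 2 and 3 labelled deficient (21.6%, against 29.8%), 9 relative to Myh11, and 3 to 13 with 1 library left out, where fewer values per group separate more easily. The median of the members ran from -0.22 to -0.08 with 1 library left out.

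Sign changes were as follows. Under upper quartile scaling Cald1 stood at -0.019, Rock1 at -0.0036 and Rock2 at -0.018. Under library totals Cald1 stood at -0.039, Rock1 at -0.025, Rock2 at -0.040 and Filip1l at -0.011. Cald1 was -0.00043 with no filter and -0.0012 with 1 CPM in at least 4 libraries. Myl9 was 0.0011 under DESeq2 size factors and 0.0011 in DESeq2. In limma-voom Actg2 was 0.029, Myl9 0.021 and Rock2 -0.0044. Without libraries 2 and 3 labelled deficient Cald1 was -0.11, Vcl -0.070, Rock1 -0.043, Rock2 -0.19, Pdlim7 -0.15, Fhl2 0.14 and Lpp -0.092. With 1 library left out the differences ran from -0.21 to 0.19 for Actg2, -0.13 to 0.061 for Synpo2, -0.14 to 0.068 for Myl9, -0.067 to 0.052 for Cald1, -0.29 to 0.17 for Ldb3, -0.029 to 0.12 for Vcl, -0.026 to 0.046 for Rock1, -0.094 to 0.088 for Rock2, -0.040 to 0.18 for Pdlim7, -0.086 to 0.086 for Fhl2 and -0.044 to 0.085 for Filip1l. Log2 ratio differences ran from -0.041 to 0.097 for Tpm2 over Tpm1, -0.086 to 0.020 for Ppp1r12b over Ppp1r12a and -0.070 to 0.039 for Rock2 over Rock1. Depth does not limit these genes, since the smallest count of a member in any library was 575.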
